A study of Drosophila melanogaster with 2 samples.

Results

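The Hedgehog pathway was examined through 7 of its genes in a chromatin immunoprecipitation sequencing (ChIP-seq) map of Ash1 in Drosophila melanogaster embryos: hh, ptc, smo, cos, fu, Su(fu) and ci. The genes were chosen by name, out of 18358 annotated genes, and every region with its summit in a gene or within 5 kb of it was taken. That gave 72 of the 30000 candidate regions called on both replicates pooled, 77 in replicate 2 and 69 in replicate 4. Of the 72, 7 were in the authors' list thresholded by the irreproducible discovery rate (IDR), and these are called peaks below. Regions are given by their rank in a list, where 1 is the strongest signal; every peak ranked above every other pooled candidate. A replicate's regions are called strong when they are among as many of its strongest regions as there are peaks in all.

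The samples were 2 biological replicates, numbered 2 and 4, of 1 group: whole embryos of mixed sex, 0 to 24 h old, from a transgenic line that stably makes Ash1 fused to GFP at its C terminus. The labels do not say whether the tagged gene replaces the endogenous copy. Free text in the labels names both samples as input controls, whereas the antibody, the assay and the peak calls are those of an Ash1 ChIP, and they were treated as such. No other condition was analysed, and no test between conditions could be made. Read depth is unknown, because the lists hold no counts. In whole embryos, a region bound in few cells and a region bound weakly in many cannot be told apart.

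Hedgehog is a secreted, lipid-modified ligand that patterns segments and appendages. It binds the receptor Patched, which otherwise holds the membrane protein Smoothened inactive. Smoothened signals through a cytoplasmic complex of Costal, the kinase Fused and Suppressor of fused to the zinc finger transcription factor Cubitus interruptus, which is cut to a repressor without the signal and activates target genes with it. Ash1 is a trithorax group methyltransferase of lysine 36 of histone H3, and the trithorax and Polycomb groups maintain the on and off states of developmental genes, hh among them.

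The strongest region at these genes was a peak at a ci start site, with rank 49. Of the 7 peaks ci had 3, ptc had 2, smo and cos had 1 each, and hh, fu and Su(fu) had none. In the pooled list, the 3 peaks of ci had a start site of ci as the nearest annotated transcription start site (TSS), and the other 4 that of another gene. With start sites of protein-coding genes alone, 1 peak of ptc was also nearest to its own gene, 4 in all. The share of candidates that were peaks was 9.72%, against 5.22% of all pooled candidates. At least 1 peak was found for 4 of the 7 genes, against 26.0% of the 14052 annotated genes with a candidate in the same window. At least 2 peaks were found at ci and ptc, against 6.35% of those genes, and 3 at ci, against 1.72%. A peak nearest to the gene's own start site was found at 1 of the 7, against 8.58%. These shares take no account of gene length, and a longer gene has a longer window. With a window of 2 kb only 3 peaks were counted, 1 each at ci, ptc and cos.

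**Figure D1:**
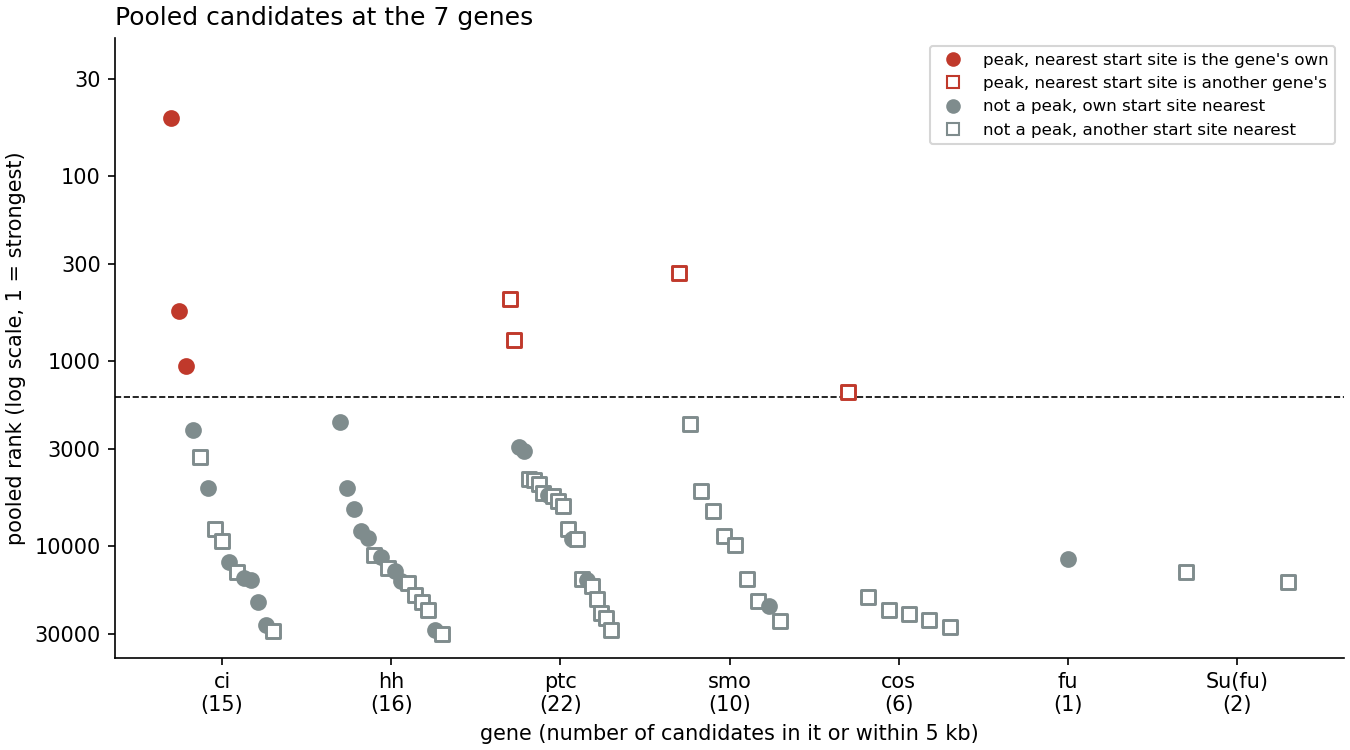
Rank of each pooled candidate (vertical axis, log scale, 1 is the strongest) by gene (horizontal axis, with the number of candidates). Red symbols are peaks and grey ones are not; filled circles have a start site of the gene itself as the nearest, open squares that of another gene; the dashed line is the rank of the last peak in the whole list. The 3 peaks of ci are filled, and the 4 peaks of ptc, smo and cos are open.

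The gene ci lies on the minus strand of the fourth chromosome (dm6, chr4:47710-57041). It has 2 annotated start sites, at 57041 and 56331. The strongest region covered 288 bp, chr4:56288-56575, with its summit at 56402, between the start sites. The summit was 71 bp upstream of the inner start site and 639 bp downstream of the outer one, in the exon that is 5' untranslated in the transcript from the outer site. This region ranked 49 in the pooled list, 29 in replicate 2 and 96 in replicate 4. It was the strongest of the 240 candidates on the fourth chromosome. The replicate summits lay within 38 bp of the pooled one, and in every list the summit was within 109 bp of the inner start site.

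An antisense noncoding RNA gene, asRNA:CR43957 (chr4:56497-63124, plus strand), starts 95 bp from that summit, overlaps the 5' part of ci and extends beyond it. The region was therefore within 500 bp of start sites of both genes, and its binding cannot be assigned to either from position. In replicate 2 the summit was 57 bp from the start of asRNA:CR43957 and 109 bp from that of ci.

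The other peaks of ci lay upstream, inside asRNA:CR43957. Their summits were 2079 bp and 3150 bp upstream of the outer start site, at 59120 in an intron and at 60191 in an exon of the antisense gene. The nearer ranked 540 in the pooled list, 368 in replicate 2 and 1336 in replicate 4. The farther ranked 1070 in the pooled list, but 1616 in replicate 2 and 1774 in replicate 4, so it was not strong in either replicate taken alone. The 3 summits spanned 3789 bp. The deposited signal of the strongest was 338, of the next 141 and of the third 108, on a scale that is not stated, and the lowest signal of any peak was 92.5.

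Sequence at these peaks is shown because they include the strongest region of the 7 genes, and the upstream pair lies beside it. It was read from RefSeq's copy of dm6 and runs 5' to 3' on the strand of ci. The first line holds 30 bases, chr4:56355-56384, from the strongest peak, whose middle is otherwise untranslated sequence and not printed. The others hold 100 bp on each side of the upstream summits, chr4:59020-59220 and chr4:60091-60291. Capitals mark matches, on either strand, to 5 motifs: GAGAG (bound by GAGA factor and Pipsqueak), GCCAT (the core of the Polycomb recruiter Pho), TGGGTGGTC (Ci itself), TATCGATA (DREF) and TGAGTG (a Zeste site).
ci rank 49: ttggacaATGGCatgtgtGAGAGgagatcc
ci rank 540: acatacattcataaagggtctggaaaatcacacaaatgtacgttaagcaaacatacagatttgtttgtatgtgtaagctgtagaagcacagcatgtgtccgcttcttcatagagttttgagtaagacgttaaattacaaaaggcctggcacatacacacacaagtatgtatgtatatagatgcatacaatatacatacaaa
ci rank 1070: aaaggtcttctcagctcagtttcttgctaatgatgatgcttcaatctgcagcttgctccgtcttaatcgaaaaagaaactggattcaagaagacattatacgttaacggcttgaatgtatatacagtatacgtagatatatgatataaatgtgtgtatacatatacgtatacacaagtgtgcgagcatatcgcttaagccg

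In the strongest peak, GAGAG and GCCAT (as its complement) stood within 16 bp of each other, with centres 38 bp and 27 bp from the summit. None of the 5 motifs was found within 100 bp of either upstream summit. The GC content of these windows was 40.3% at the strongest peak, and 34.8% and 36.8% at the upstream ones, below the median of 43.8% over all peaks. The candidates of ci that were not peaks had 31.8% to 44.3%, and no median over the fourth chromosome was taken.

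The remaining 12 candidates of ci were not peaks. The strongest of them lay 1120 bp downstream of the inner start site in an intron, with ranks of 2350 pooled, 2173 in replicate 2 and 1736 in replicate 4. A candidate 44 bp from a start site of PlexB, which encodes the axon guidance receptor Plexin B, came next at 3293. In the coding exons of ci the best rank was 13809.

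Beside other genes of the fourth chromosome, ci held 3 of the 18 peaks there (16.7%) in a window of 1.43% of the arm that held 6.25% of its candidates. By nearest start site zfh2 had 6 of the 18, and pan and Asator had 3 each, as ci did. The next strongest regions on the arm had their nearest start site at zfh2 (rank 101), RpS3A (rank 156) and zfh2 again (rank 209). By the rank of the strongest region within 500 bp of a start site, among those strong in both replicates, the genes closest to ci were asRNA:CR43957, which shares the region, RpS4 (rank 50), hth (rank 47), and CG1792 and Mnat9, which share rank 51. RpS4 encodes a ribosomal protein and hth the Hox cofactor Homothorax. This is a likeness in 1 number, the pooled rank. RpS4 ranked 248 in replicate 2 and 26 in replicate 4, and hth 61 and 46. The region shared by CG1792 and Mnat9 ranked 42 and 94, against 29 and 96 for ci. Counted over the whole gene and 5 kb on each side, hth had 10 peaks, RpS4 1 and ci 3, without allowance for gene length.

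The ligand gene hh lies on 3R (chr3R:23128169-23141906, minus strand), with a single start site. It had 16 candidates and no peak. The strongest summit was between genes, 1696 bp upstream of the start site, and ranked 2136 in the pooled list, 2409 in replicate 2 and 2171 in replicate 4. The region was found at nearly the same position in all lists, with replicate summits 1693 bp and 1696 bp upstream. Its signal of 81.3 in the pooled list was below the lowest of any peak, 92.5. No pooled candidate lay within 500 bp of the hh start site, and the best there ranked 19178 in replicate 2 and 19775 in replicate 4.

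Inside hh, 8 candidates lay in introns and 2 in coding exons. The strongest, 2041 bp downstream of the start site, ranked 4883 in the pooled list and 5940 in replicate 4 but 16320 in replicate 2. A second intronic region, 1330 bp downstream, ranked 6313 in the pooled list and 2786 in replicate 4, with no match within 100 bp in replicate 2. In replicate 2 the strongest inside the gene ranked 5336 and lay 2741 bp downstream. The order of the regions inside hh thus differed between the replicates, whereas the upstream region was the strongest in both. Of the 16 candidates, 5 were matched in both replicates.

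The upstream region of hh, chr3R:23143502-23143702, is shown on the strand of hh for comparison with the ci peaks, since it was the best-placed region of the ligand gene. It held 1 GAGAG match and 1 GCCAT match, in capitals, and its GC content was 51.7%.
hh rank 2136: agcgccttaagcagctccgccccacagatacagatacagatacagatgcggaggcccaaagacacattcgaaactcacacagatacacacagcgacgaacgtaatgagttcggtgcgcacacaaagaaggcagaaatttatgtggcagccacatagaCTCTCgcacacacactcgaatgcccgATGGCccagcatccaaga

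The signal transducer smo lies on 2L (chr2L:277582-282167, plus strand). Its window held 10 candidates, 3 of them inside the gene, and 1 peak. The peak was 4491 bp beyond the 3' end of smo, with its summit 127 bp from a start site of CG3625, in an intron of that gene and an exon of the noncoding asRNA:CR46263. It ranked 335 in the pooled list, 251 in replicate 4 and 1388 in replicate 2. At smo itself the candidate nearest to the start site, 127 bp downstream, ranked 21162 and had no match within 100 bp in either replicate. The best candidate inside smo, in a coding exon, ranked 9907. So the rank of 335 belonged to a promoter of a neighbour. With a window of 2 kb the best rank counted for smo was 6492. That region also lay at a neighbour, 1146 bp beyond the 3' end of smo and 44 bp from a start site of CG11601.

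The sequence of that neighbouring peak, chr2L:286558-286758 on the plus strand, is shown because it carried the strongest region counted for smo. It held 1 match each to GAGAG and TGAGTG, in capitals, and both were found as complements.
smo rank 335: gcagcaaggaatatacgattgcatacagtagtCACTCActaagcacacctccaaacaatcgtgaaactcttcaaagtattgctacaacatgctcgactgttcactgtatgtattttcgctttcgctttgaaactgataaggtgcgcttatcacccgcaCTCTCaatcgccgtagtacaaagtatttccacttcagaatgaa

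**Figure D2:**
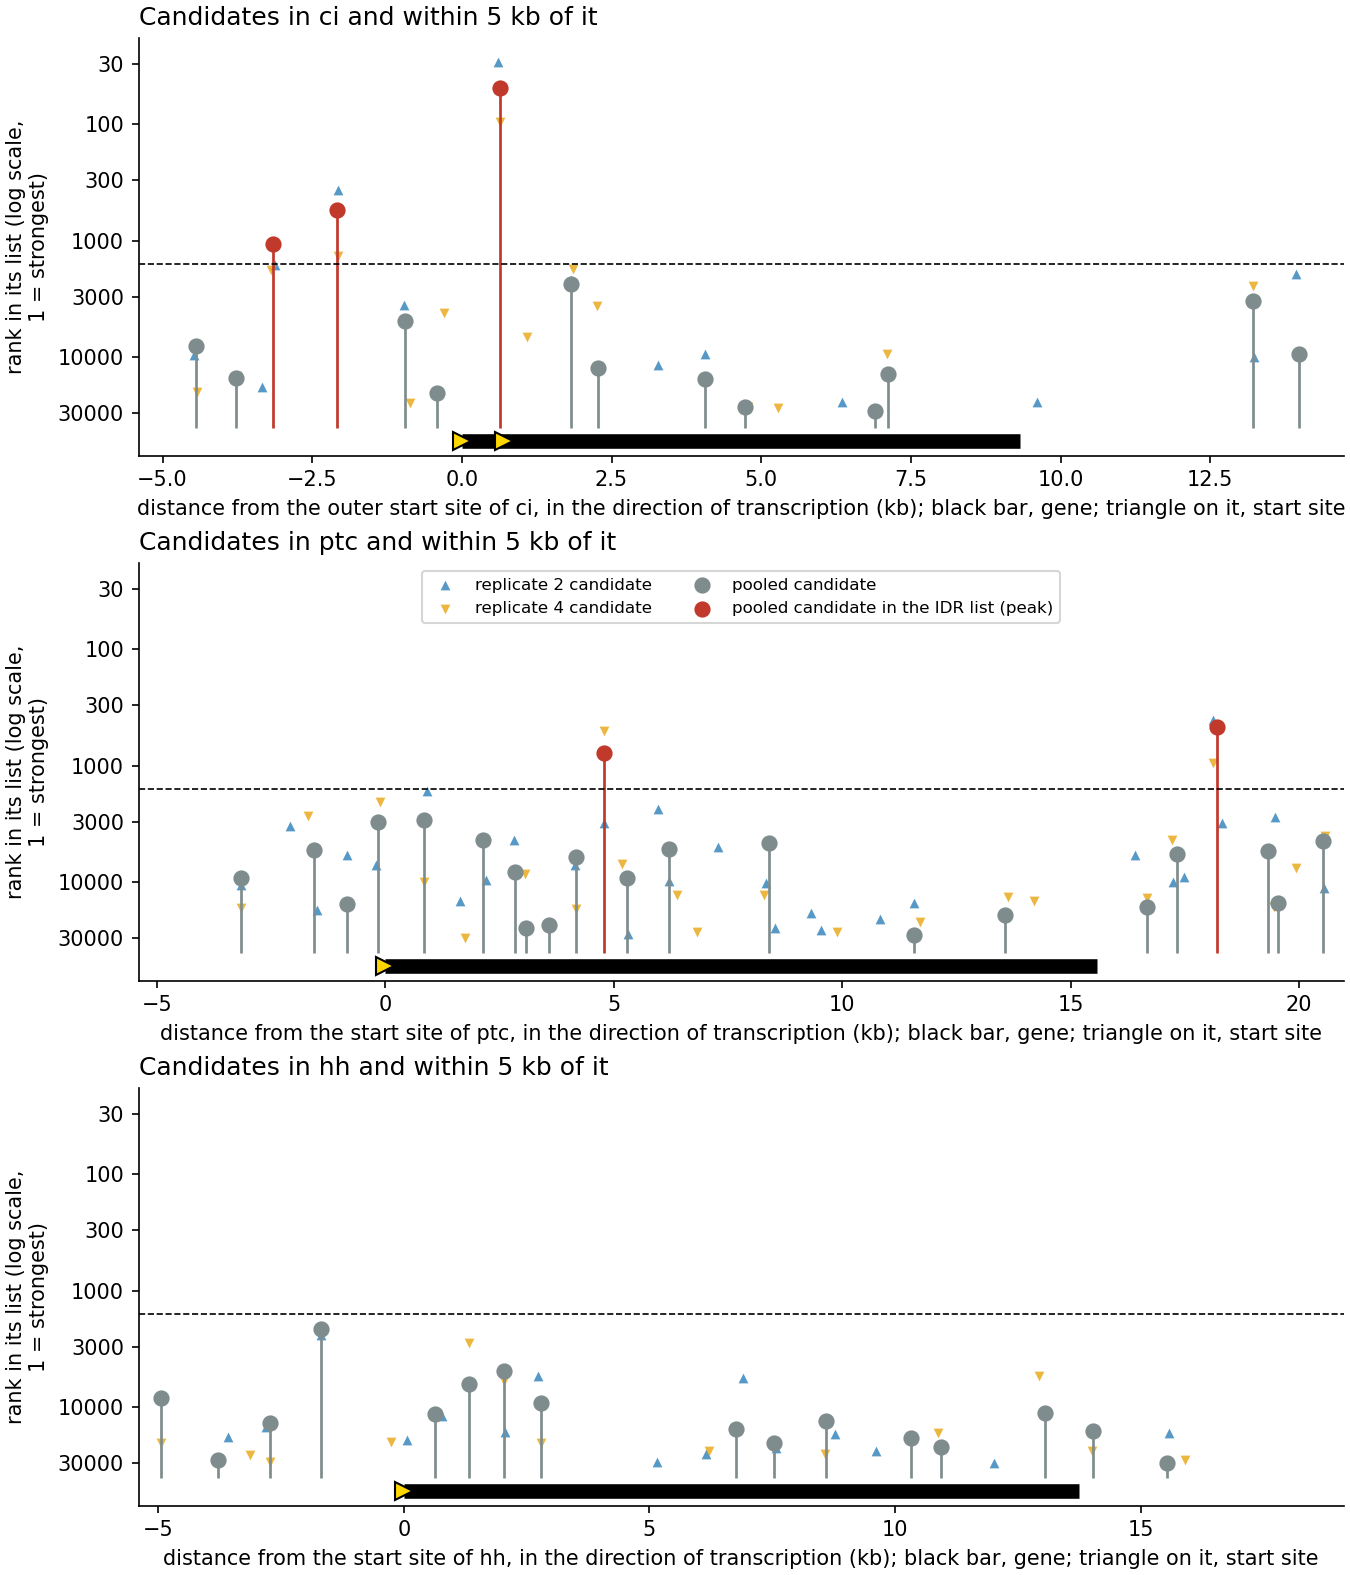
Candidates along ci, ptc and hh: distance from the outer start site in the direction of transcription (horizontal axis, kb) against rank in the list (vertical axis, log scale, 1 is the strongest). Red and grey circles are pooled peaks and other pooled candidates, triangles the candidates of each replicate, the black bar the gene, yellow triangles its start sites and the dashed line the rank of the last peak. The strongest region of ci, rank 49, stands at its inner start site, the peaks of ptc at 4782 bp and 18205 bp from its start, and no circle of hh reaches the line.

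The receptor gene ptc lies on 2R (chr2R:8649649-8665223, plus strand). It had the most candidates, 22 in a window of 25.6 kb, or 8.60 per 10 kb. The median over 13986 protein-coding genes was 2.39, and 2.72% of them had windows at least as dense. For ci the density was 7.76 (4.49% as dense), for smo 6.86 (7.52%), for hh 6.74 (7.92%), for cos 4.02 (28.0%), for Su(fu) 1.72 (59.2%) and for fu 0.743 (76.0%). The genes with dense windows thus included hh, which had no peak.

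Of the 2 peaks counted for ptc, 1 lay in the gene. Its summit was in an intron, 4782 bp from the start site, and 2935 bp from that of lncRNA:CR44281, a noncoding RNA gene with a start site inside ptc. It ranked 769 in the pooled list, 506 in replicate 4 and 3079 in replicate 2. The other peak, rank 462 (401 in replicate 2 and 941 in replicate 4), lay 2631 bp beyond the 3' end of ptc. It was in an intron of Acsl, which encodes a long-chain acyl-CoA synthetase, and 1683 bp from a start site of that gene. The peak past the 3' end was thus strong in both replicates, and the intronic one in replicate 4.

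The ptc start site carried a candidate that was not a peak. Its summit was 169 bp upstream, and it ranked 3049 in the pooled list, 2054 in replicate 4 and 7143 in replicate 2. Within 100 bp of that summit GAGAG matched 9 times and GCCAT once. A neighbouring candidate in the first part of the gene, 843 bp downstream in a coding exon, ranked 2912 (1641 in replicate 2 and 9843 in replicate 4). The replicates therefore differed in which of these came first.

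ptc is itself a target of Ci, in a negative feedback on the pathway. A candidate 847 bp upstream of its start site was the only one of the 72 with an exact match to TGGGTGGTC, the Ci motif, which 0.16% of all candidates held. That region ranked 15305 in the pooled list and 5855 in replicate 2, with no match within 100 bp in replicate 4.

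The gene cos (chr2R:7382176-7387115, minus strand), which encodes a kinesin-like scaffold of the pathway, had 6 candidates, none inside the gene. Its only peak lay 343 bp beyond the 3' end, in the 5' untranslated region of Dscam1, 36 bp from a start site of that gene, which encodes a cell adhesion molecule of neurons. The region ranked 1467 in the pooled list, 1681 in replicate 4 and 2462 in replicate 2, and was strong in neither. With the 783 strongest peaks alone, cos had none. The other 5 candidates ranked from 18742 to 27298. Within 500 bp of the cos start site only replicate 2 had candidates, 22 bp and 265 bp upstream, at ranks 26848 and 28509.

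The kinase gene fu and the inhibitor gene Su(fu) had the fewest regions. For fu (chrX:18657755-18661204, plus strand) the single pooled candidate lay 107 bp upstream of the start site and ranked 11734. It was matched in replicate 4 (rank 8653), and the nearest candidate of replicate 2 was 265 bp upstream (rank 11972). For Su(fu) (chr3R:12689873-12691468, minus strand) the 2 pooled candidates ranked 13759 and 15646, the first 30 bp from a start site of NijC and the second in an intron of kar. The first was matched in replicate 2 (rank 24631) and the second in neither replicate. Neither gene had a candidate matched in both replicates.

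By position, 5 of the 72 candidates lay within 500 bp of a start site of the pathway gene and nearest to it, with 1 peak. A further 14 lay that close to a start site of another gene, with 2 peaks. The rest lay more than 500 bp from any annotated start site. Introns of the 7 genes held 19 of these and 1 peak, coding exons 9 and no peak, and other genes 17 and 3 peaks. Sequence between genes held 7 candidates and no peak. The remaining 1 had its summit in exon sequence of ci annotated as 5' untranslated. In its window of 201 bp, 177 bases were annotated as untranslated and 177 as coding. These classes were not counted over all candidates or all peaks, so the counts only describe the 72. Of the 4 genes with a pooled candidate within 500 bp of a start site (ci, ptc, smo and fu), ci alone had a peak there, against 15.4% of the 7494 genes with such a candidate.

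**Figure D3:**
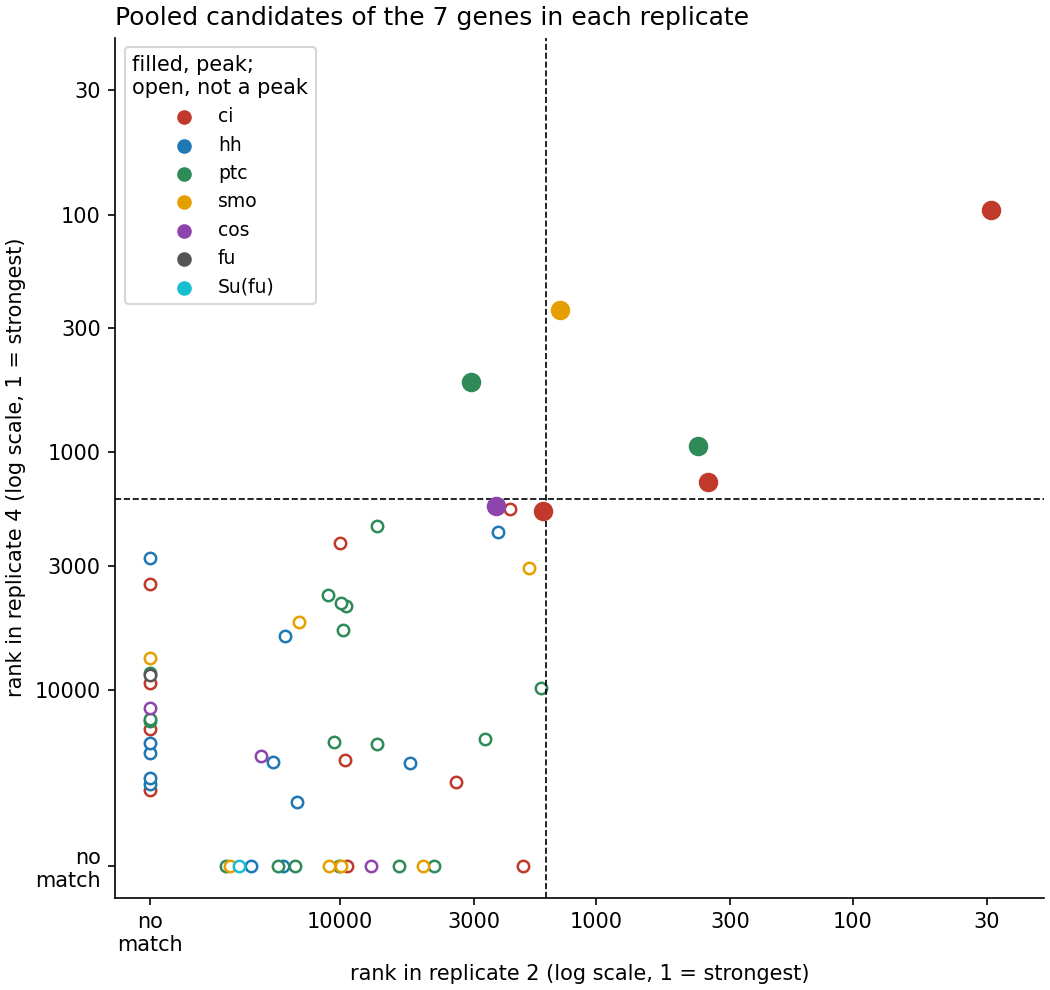
Rank in replicate 2 (horizontal axis) against rank in replicate 4 (vertical axis), both on log scales with 1 the strongest, of each pooled candidate matched within 100 bp in at least 1 replicate. Filled circles are peaks, open circles are not, colours are genes, and the dashed lines mark the rank of the last peak in the pooled list. Regions matched in neither replicate, 13 of the 72, are not drawn. The strongest ci region is at the upper right, with ranks 29 and 96, and 4 of the 7 peaks lie beyond both lines.

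Both replicates held a candidate within 100 bp for 28 of the 72 regions (38.9%), against 31.0% of all pooled candidates. For 16 there was a match in replicate 2 alone, for 15 in replicate 4 alone, and for 13 in neither. All 7 peaks were matched in both, but the list of peaks was itself thresholded by a measure of reproducibility. It was also an exact cut by pooled signal, and a peak need not be strong in both replicates. The share of all peaks matched in both was not counted. Strong in both replicates were 4 of the 7 peaks, at ci (ranks 49 and 540), ptc (rank 462) and smo, against 46.3% of all peaks. The ptc intron was strong in replicate 4 alone, and the third ci peak and the cos region in neither. When the strong regions of a replicate stood in for the peaks, 4 were counted in replicate 2, without replicate 4, and 5 in replicate 4, without replicate 2, at ci, ptc and smo in each case. Without replicate 4, 1 of these was nearest to the pathway gene's own start site. The strongest ci region then lay nearer to the start site of asRNA:CR43957, and the third ci peak was not strong. The replicates shared 1 control alignment; its part in their likeness was not tested.

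Within 100 bp of the summit, GAGAG was found in 22 of the 72 candidates (30.6%), against 28.3% of all candidates, and in 4 of the 7 peaks, against 37.5% of all peaks. Those 4 were the strongest ci peak, the ptc peak in Acsl, and the peaks of smo and cos. GCCAT was found in 29 of the 72 (40.3%), against 38.1% of all candidates, and in 2 of the 7 peaks, those of ci and cos that also held GAGAG, against 33.6% of all peaks. TATCGATA occurred in 2 of the 72, against 1.48% of all candidates, and TGAGTG in 9, against 11.8%. The 7 peaks held no match to TGGGTGGTC or TATCGATA. Shares over the 72 were thus close to those over all candidates for GAGAG, and no match says only that these letters were not in the window.

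Other genes of the pathway were taken from a list of 26, by role. Of these, 9 (34.6%) had a peak in the gene or within 5 kb, and 7 had a peak nearest to their own start site. A peak within 500 bp of a start site was found at 6 of the 24 genes with a candidate there, and at 3 (dlp, gish and caup) when peaks had to be strong in both replicates. The backgrounds for these counts are the 26.0%, 8.58% and 15.4% given for the 7 genes. Here too they take no account of gene length or of the number of start sites. The windows of the 26 genes ranged from no candidate at disp to 68 at rdx. The 26.0% and 8.58% cover only genes with a candidate in the window, which disp lacked.

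Kinases and proteolysis held most of them, 5 of 9 genes. At gish, a casein kinase 1 gene, 3 peaks were found, the strongest 167 bp from a start site (rank 130, 58 in replicate 2 and 580 in replicate 4). The start sites of sgg, the GSK3 kinase (rank 549), rdx, an adaptor for Ci degradation that Hedgehog signalling induces (rank 554), and CkIalpha (rank 1048) had 1 peak each. Of these, sgg ranked 272 in replicate 2 and 10964 in replicate 4, rdx 351 and 3387, and CkIalpha 1898 and 676. Each was thus strong in 1 replicate alone. The peak of rank 18 counted for Gprk2, a receptor kinase, was 590 bp from its start site and 85 bp from that of PNPase. Pka-C1, slmb, Cul1 and Cul3 had no peak, with best ranks of 1683, 2649, 6185 and 16905.

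In reception, 1 of 5 genes had peaks, the glypican gene dlp, with rank 280 at its start site (674 in replicate 2 and 166 in replicate 4). Its paralogue dally had a start-site candidate at rank 1727, and the co-receptor gene boi at rank 2521. For ihog, another co-receptor gene, the best rank of 2140 lay 17 bp from a start site of SA1. The start-site candidate of ihog ranked 21251. For ligand processing and release, rasp had a best rank of 3098, 9 bp from a start site of Asciz, and 27785 at its own start site. The gene disp had no candidate in its window. The gene of the Ci cofactor nej had a peak 769 bp from its start site (rank 703), and 354 bp from that of lncRNA:CR42657, the nearest. Of the activators of hh, en had a peak 1527 bp upstream (rank 796, 1257 in replicate 2 and 502 in replicate 4), and inv none.

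Among 7 target genes, caup, a homeobox gene, had a peak, 57 bp from its start site (rank 637, 563 in replicate 2 and 1077 in replicate 4). The other target genes, wg, dpp, kn, rho, sr and ara, each had a candidate within 500 bp of a start site that was not a peak. Those ranked 2627 for wg, 3635 for dpp, 2494 for kn, 1913 for rho, 4165 for sr and 4260 for ara. The share of target genes with a start-site peak, 1 of 7, was near the 15.4% of all genes with a candidate there.

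**Figure D4:**
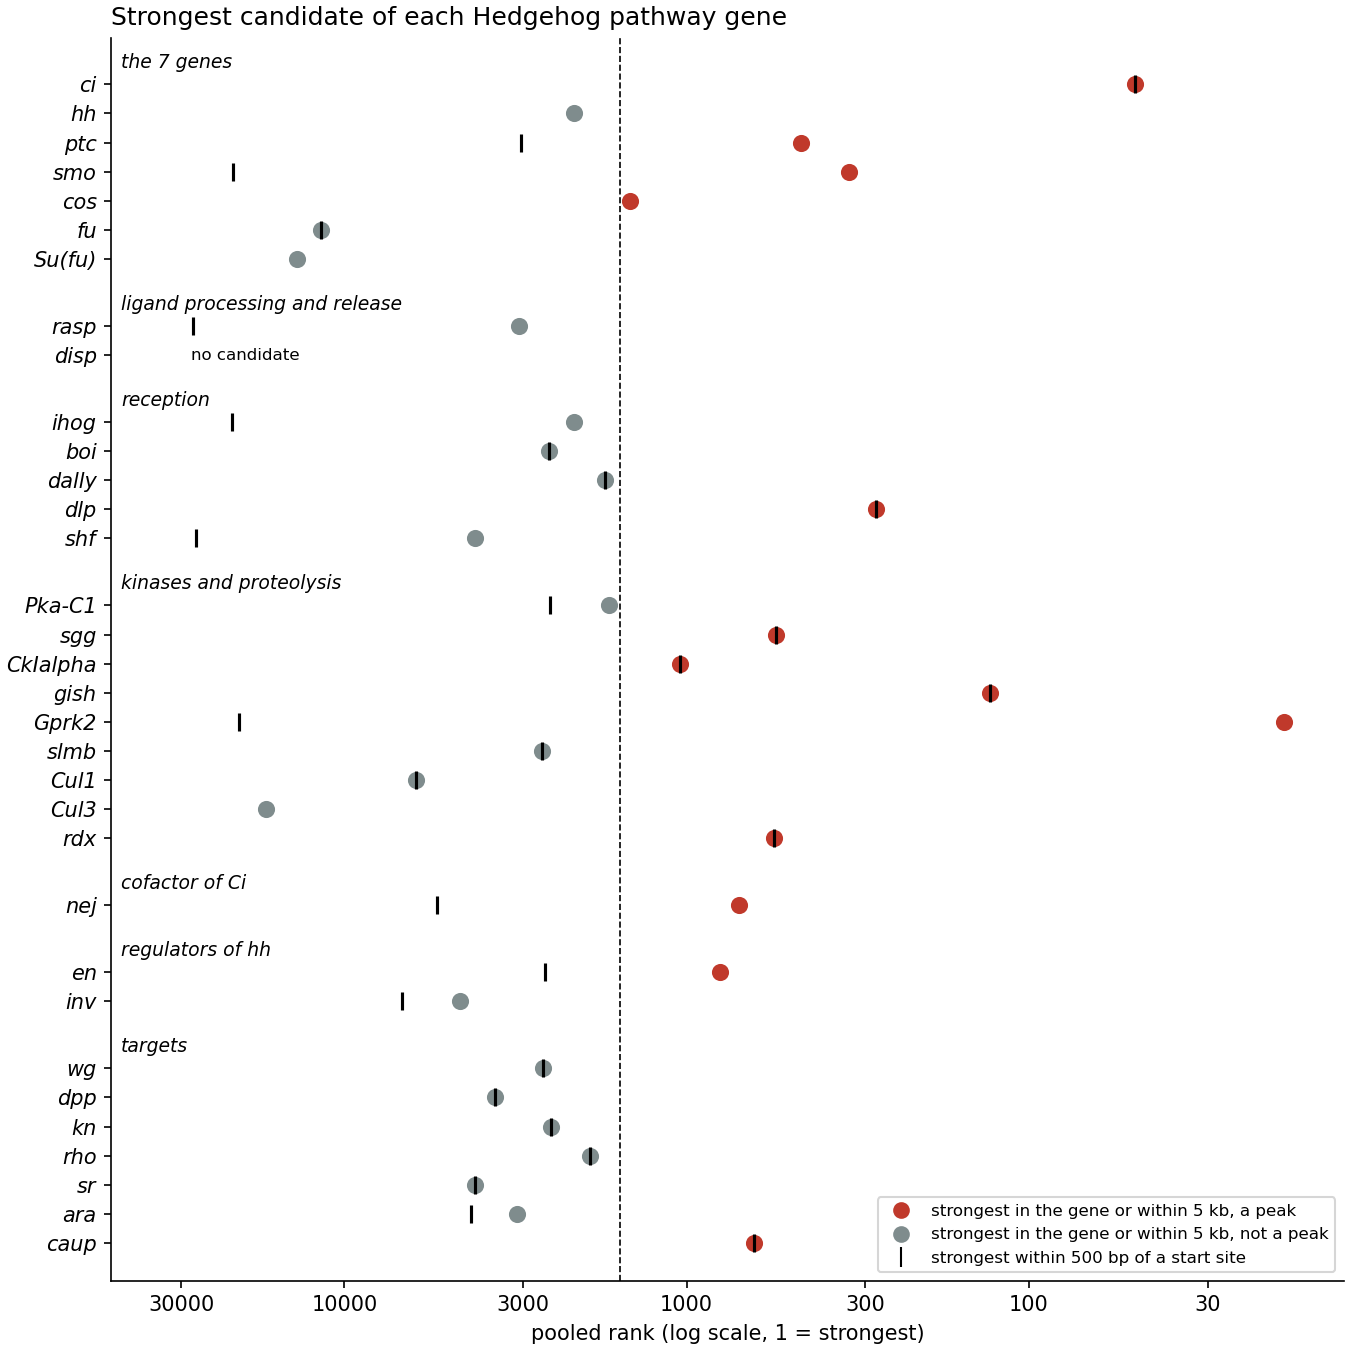
Pooled rank (horizontal axis, log scale, 1 is the strongest) of the strongest candidate of each of the 7 genes and of 26 other pathway genes, by role. Circles are the strongest candidate in the gene or within 5 kb, red where it is a peak; black ticks are the strongest within 500 bp of a start site; the dashed line is the rank of the last peak. Circle and tick coincide for ci at 49, whereas the circles of ptc, smo and Gprk2 stand apart from their ticks.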

How the data were processed

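The authors deposited 4 lists of regions in dm6 coordinates: candidates of each replicate, candidates of both pooled, and IDR peaks. Each candidate list was called against 1 control alignment, per the text deposited with the files. No aligner, caller or IDR threshold was given in the sources read. Ranks came from the signal value, deposited by the authors on an unstated scale. The deposited −log10 q-value stood at its maximum in 13 of the 72 candidates and was not used for ranks. Positions are printed 1-based.

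Genes and start sites came from Ensembl release 115, without transposable elements, and sequence from RefSeq; the bounds of all 7 genes were the same in both. Regions of different lists were matched by summits within 100 bp. Python 3.11.15 with pandas 2.3.3 was used, and the counting steps were tested on simulated data. Named are the 7 genes with every peak and their strongest candidate, other pathway genes with a peak, and neighbours with the nearest start site. Genes with a start-site region strong in both replicates and within 10 ranks of ci were also named, but only the closest of them. Best ranks of the other list genes and the other regions described were chosen after values were seen. Members, lists and motifs were chosen with earlier results of these data known. No enrichment test was made, since regions of a gene are not replicates; counts stand beside the share over all candidates or genes.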

Additional observations from a re-analysis of the deposited data

How the results depend on the processing

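No paired analysis was possible because there is 1 group and no test. With regions under 1000 bp apart merged, the 72 candidates became 25. The number of peaks at the 7 genes, 7, was 3 with a window of 2 kb, 4 for peaks strong in both replicates, and 4 to 5 with a replicate left out. Peaks nearest to the gene's own start site, 3, numbered 1 to 2 with a replicate left out. Peaks with GAGAG or GCCAT, 4, numbered 2 with letters within 50 bp of the summit, an alternative chosen after seeing the data, as were those for the list of 26 genes and for nearest start sites. The other 38 counts under alternatives were within 1.5 times the reported ones; among these, ci alone had a peak at a start site in all 7 alternatives tried for that count. Of the 26 genes, 6 to 12 had a peak under the alternatives, and 3 to 8 had one at a start site, the 3 when peaks had to be strong in both replicates, against 6 reported. Against the spread between replicates, the strongest rank of a gene was classed as moved in 9 of 27 cases. The largest was smo, from 335 to 6492 with a window of 2 kb. Some such moves were smaller than the difference between the 2 replicates, as for smo without replicate 4 (1388, against 251 in replicate 4). With a replicate left out the rank is that of the other, so those cases only restate how the replicates differed. Without read counts, depth set no interval on any rank.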
